A study of Rattus norvegicus with 24 samples.

Results

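Whole blood of rats was profiled on 24 two-colour Agilent microarrays, and 8 genes of cholesterol synthesis and its control were followed: Hmgcs1, Idi1, Fdps, Fdft1, Sqle, Dhcr7, Srebf2 and Insig1. Every non-control probe whose gene name equalled one of these symbols was taken, which gave 9 probes for the 8 genes out of 30367 probes on the array, since Fdps has 2 probes. Male Sprague-Dawley rats, 8 weeks old, ate for 6 weeks a control diet (G0) or a diet with oat beta-glucan of high (G1) or low (G2) molecular weight. Enteritis was induced with LPS, bacterial lipopolysaccharide, at 10 mg/kg in the groups named LPS-G0, -G1 and -G2 by diet, and the groups C-G0, C-G1 and C-G2 received saline in its place. Each of the 6 groups held 4 arrays, each array carried the blood RNA of 1 rat, and the other channel of every array held a common pool of RNA. The sample titles place replicates 3 and 4 of LPS-G0 among the LPS rats, while another label of the same samples reads control, so the tests against LPS-G0, the overlap counts, the Sqle limit and the marker ranges were also computed without them.

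Cells build cholesterol from acetyl-CoA through mevalonate, isoprenoid units and squalene. When sterols in the endoplasmic reticulum run low, the escort protein Scap carries the SREBP precursors to the Golgi, where they are cut, and the freed factor raises the genes of synthesis and uptake. When sterols are plentiful, Insig proteins hold Scap back. Blood mixes white cells, platelets and young red cells, and mature red cells no longer make sterols. None of the 8 genes is itself a gene of uptake, so genes of uptake and traffic were read from a separate list.

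A value here is the log2 ratio of Cy3 over Cy5, so that 0 is the level of the common pool and 1 is double intensity. The labels place the rat RNA in Cy3 and the pool in Cy5, whereas the study's methods name the dyes the other way round, and with the dyes of the methods every sign below would turn. The filter on dim probes, the detection counts and the Sqle limit below read Cy3 as well and would hold for the pool. In Cy5 each of the 9 probes was well above background on 24 of 24 arrays, Sqle and Dhcr7 included. Among 7074 probes bright in both channels, the median SD within groups was 0.343 in Cy3 and 0.183 in Cy5, and 97.8% of probes varied more in Cy3. The channel named as rat RNA by the labels was thus the one that varied more from array to array.

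The Cy3 signal of Hmgcs1, Fdft1, Fdps and Srebf2 cleared the background by a wide margin on each of the 24 arrays, that of Idi1 on 22 and that of Insig1 on 15. These 6 genes entered the test. Insig1 passed only through the groups LPS-G1 and C-G1, where it was detected on all 4 arrays, so that counts and medians over the 6 genes include a gene let in by the G1 groups. Sqle and Dhcr7 were each detected in this sense on 10 of 24 arrays, never on all 4 arrays of a group, and were not tested. Across arrays, between 7786 and 15385 probes were well above background in Cy3, the lowest being C-G0 replicate 3. Fewer cells of a type and less RNA per cell cannot be told apart in such blood samples.

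The 2 Fdps probes are shown because they gave different sizes of change. The array's annotation places both in Fdps on chromosome 2 of its build, rn4, the first at chr2:181170192-181170336 and the second at chr2:181168650-181168691. The second span is shorter than the 60 bases of its probe, so these positions do not bound the printed bases. Their place in the genome was not checked. No part is in capitals.
A_44_P432965: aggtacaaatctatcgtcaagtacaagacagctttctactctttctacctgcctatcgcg
A_64_P147190: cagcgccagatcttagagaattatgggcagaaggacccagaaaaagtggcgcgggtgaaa

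RefSeq promoter windows (GRCr8) were found for 6 of the 8 genes, all but Sqle and Fdft1, and the 250 bases before the start were searched on both strands. The core of the sterol element, TCACNCCAC, was in none of the 6 windows and in 0.974% of 33469 promoters. The E-box CACGTG was in 1 of 6, Insig1, and in 5.59% of all promoters. After these gave so few matches, 3 more motifs were tried. CACNCCAC was in 1 of 6 (Insig1) against 4.89% of all, CACCCCAC in 0 of 6 against 2.32%, and CCAAT, the box bound by NF-Y, in 5 of 6 against 34% of all. A match is a run of letters and not a shown site. A window without an exact match in these 250 bases is not shown to lack a site. The windows of Hmgcs1 (chr2:53382054-53382303, plus strand), Srebf2 (chr7:115543057-115543306, plus strand) and Insig1 (chr4:8057770-8058019, minus strand) are shown as those of the 2 genes with calls and of the gene with the E-box. Capitals mark CCAAT on either strand (ATTGG on the other) and the E-box.
Hmgcs1: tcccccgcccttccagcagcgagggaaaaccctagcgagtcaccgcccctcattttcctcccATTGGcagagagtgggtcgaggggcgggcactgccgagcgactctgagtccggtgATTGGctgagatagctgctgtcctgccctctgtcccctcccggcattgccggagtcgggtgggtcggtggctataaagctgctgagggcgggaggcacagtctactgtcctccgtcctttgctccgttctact
Srebf2: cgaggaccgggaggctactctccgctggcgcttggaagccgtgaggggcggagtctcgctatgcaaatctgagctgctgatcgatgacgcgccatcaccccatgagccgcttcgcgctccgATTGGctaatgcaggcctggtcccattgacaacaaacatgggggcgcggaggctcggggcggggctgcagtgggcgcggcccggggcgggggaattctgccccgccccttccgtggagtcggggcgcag
Insig1: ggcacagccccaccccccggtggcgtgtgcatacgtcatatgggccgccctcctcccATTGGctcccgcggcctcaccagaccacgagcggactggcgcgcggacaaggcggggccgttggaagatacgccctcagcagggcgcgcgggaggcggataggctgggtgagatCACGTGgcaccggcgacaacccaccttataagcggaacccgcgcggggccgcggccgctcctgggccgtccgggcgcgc

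With the G1 diet, Hmgcs1, the enzyme that makes HMG-CoA at the entry of the mevalonate pathway, stood higher than on the control diet in both LPS states. In LPS-injected rats its log2 ratio was 0.38, 0.13, 0.47 and 0.32 on G1 and -0.55, -0.26, -0.13 and -0.35 on the control diet. All 4 LPS-G1 arrays lay above all 4 LPS-G0 arrays. The difference was 0.64 ± 0.17 (SE) on the log2 scale, 1.56-fold, with a limma p of 0.00153 and an adjusted p of 0.0310. It was the only one of the 6 tested genes called in this comparison at an adjusted p under 0.05, where 8.93% of all 10313 probes tested were called (0.543% higher, 8.39% lower). That share itself was unstable: of the 921 probes behind it, the count became 0 without LPS-G0 replicate 1 or 4, without LPS-G1 replicate 4 or without the LPS-G0 pair of conflicting labels, 11, 1 and 2 without LPS-G0 replicate 2 or LPS-G1 replicate 2 or 3, 3 with all 24 arrays in the fit, 336 with slide as a block and 1941 without C-G0 replicate 1. The Hmgcs1 call was not firm either: with all 24 arrays in the fit the same difference had an adjusted p of 0.105, and when the pair of LPS-G0 arrays with conflicting labels was left out it was 0.73 with an adjusted p of 0.127. It was also lost when LPS-G0 replicate 1 (adjusted p 0.0999), 2 (0.0637) or 4 (0.0877), or LPS-G1 replicate 2 (0.0928), 3 (0.0785) or 4 (0.104) was left out, with differences from 0.57 to 0.71 over the 16 arrays left out in turn. The exact permutation p of 4 against 4 arrays was 0.0286, the smallest this design allows.

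In rats without LPS, Hmgcs1 read 0.30, 0.64, 0.14 and -0.05 on G1 and -0.63, 0.17, -0.31 and -0.53 on the control diet. The groups overlapped through 1 control array, C-G0 replicate 2. The difference was 0.58 ± 0.19 (SE) with a limma adjusted p of 0.114, and 0 of the 6 genes were called, as against 0.028% of all probes (1 of the 6 and 27.9% of all at an unadjusted p under 0.05). With 27.9% of all probes under that unadjusted threshold, a single gene there is no result about these genes.

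**Figure D1:**
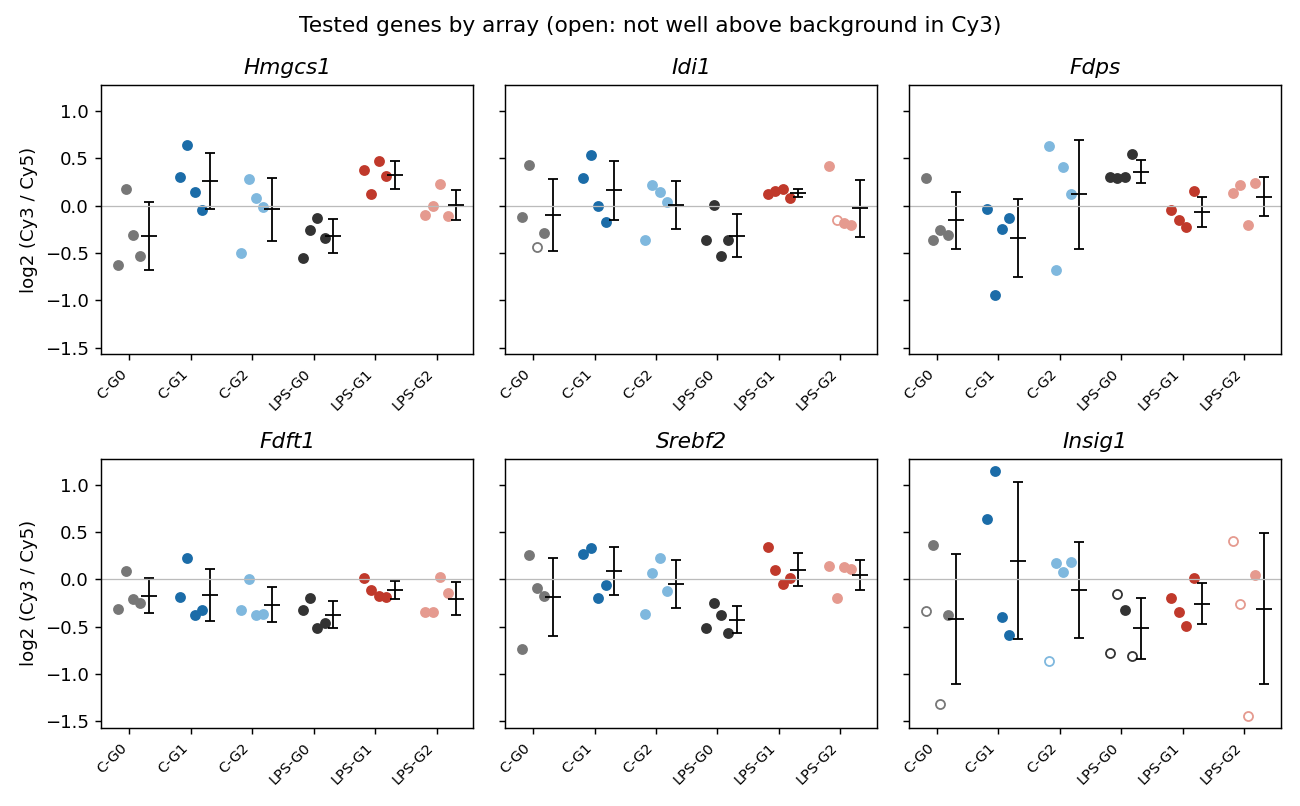
Log2 ratio of Cy3 over Cy5 (y axis) of the 6 tested genes on each array (points) in the 6 groups (x axis), with the mean and SD of 4 arrays as a bar at the right of each group; open points are not well above background. For Hmgcs1, the LPS-G1 arrays (0.13 to 0.47) lie above the LPS-G0 arrays (-0.55 to -0.13).

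Taken over both LPS states, the G1 difference of Hmgcs1 was 0.61 ± 0.13 (SE) with an adjusted p of 0.0154 by limma, and an exact permutation p within LPS states of 0.00122. Its size on the 3 slides was 0.66, 0.57 and 0.57. It ranked 66 of 10708 probes by p. Srebf2 was the only other gene of the 6 called, so 2 of 6 were called where 27.9% of all probes were (9.7% higher, 18.2% lower). The 2987 probes behind that share fell to 1161 without C-G0 replicate 1, 1286 without C-G1 replicate 2, 1412 without the LPS-G0 pair of conflicting labels, 1518 and 1643 without LPS-G1 replicates 4 and 2, 1631 with slide as a block, 1651 without LPS-G0 replicate 4 and 0 with Cy3 alone or with no filter. At an unadjusted p under 0.05 there were 3 of 6, against 44.9% of all, the third being Idi1 (0.36, adjusted p 0.0568). Idi1 passed without C-G0 replicate 2 (adjusted p 0.0198), C-G1 replicate 4 (0.0375), LPS-G0 replicate 2 (0.0483) or C-G2 replicate 1 (0.0493). In the same order, 30.8%, 27.7%, 19.2% and 29.8% of all probes were called in these fits. The median change of the 6 genes was 0.38 where that of all probes was 0.06, and 0.13 with normexp background correction and loess.

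Srebf2, the gene of the SREBP-2 factor that drives these enzymes, read 0.34, 0.10, -0.05 and 0.01 in LPS-G1 and -0.51, -0.25, -0.38 and -0.56 in LPS-G0. No LPS-G1 array fell among the LPS-G0 arrays. The difference was 0.53 ± 0.18 (SE), with a limma p of 0.00980 and an adjusted p of 0.0768, which did not pass. Over both LPS states it was 0.40 ± 0.13 (SE), adjusted p 0.0301, with 0.62, 0.28 and 0.34 on the 3 slides. This call was lost without C-G0 replicate 1 (adjusted p 0.0742), LPS-G0 replicate 1 (0.0514) or 4 (0.0603), C-G1 replicate 2 (0.0690) or LPS-G1 replicate 2 (0.0527), and when the pair of LPS-G0 arrays with conflicting labels was left out (0.0833). Without LPS, Srebf2 differed by 0.28 with an interval from -0.10 to 0.66.

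The enzymes between mevalonate and squalene gave no call between LPS-G1 and LPS-G0 by limma. Idi1, which interconverts the isoprenoid building units, read 0.12, 0.16, 0.17 and 0.08 in LPS-G1 and -0.37, 0.00, -0.53 and -0.37 in LPS-G0. All LPS-G1 values lay above those of LPS-G0. The limma difference was 0.45 ± 0.19 (SE), adjusted p 0.147. Fdft1, which makes squalene, lay at 0.02, -0.11, -0.17 and -0.19 against -0.32, -0.20, -0.51 and -0.46. Its groups did not overlap either, with a difference of 0.26 ± 0.14 (SE) and an adjusted p of 0.237.

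Fdps, farnesyl diphosphate synthase, which joins isoprenoid units for squalene and for protein prenylation, was not called either. Its brighter probe read -0.04, -0.15, -0.22 and 0.15 in LPS-G1 and 0.30, 0.29, 0.30 and 0.54 in LPS-G0. All LPS-G1 arrays were below all LPS-G0 arrays by this probe. The difference was -0.42 ± 0.16 (SE), with a limma p of 0.0187 and an adjusted p of 0.110. The second Fdps probe differed by -0.15 with a limma p of 0.361 and its groups overlapped, although the 2 probes correlated with r 0.913 over the 24 arrays. In all, 5 of 6 genes had groups that did not overlap between LPS-G1 and LPS-G0, against 21.9% of all probes (5 of 6 and 39.5% without the pair of conflicting labels), and 4 of 6 passed an unadjusted p under 0.05, against 26.9%. The median change of the 6 genes was 0.35 where that of all probes was 0.06, and 0.22 with normexp and loess.

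**Figure D2:**
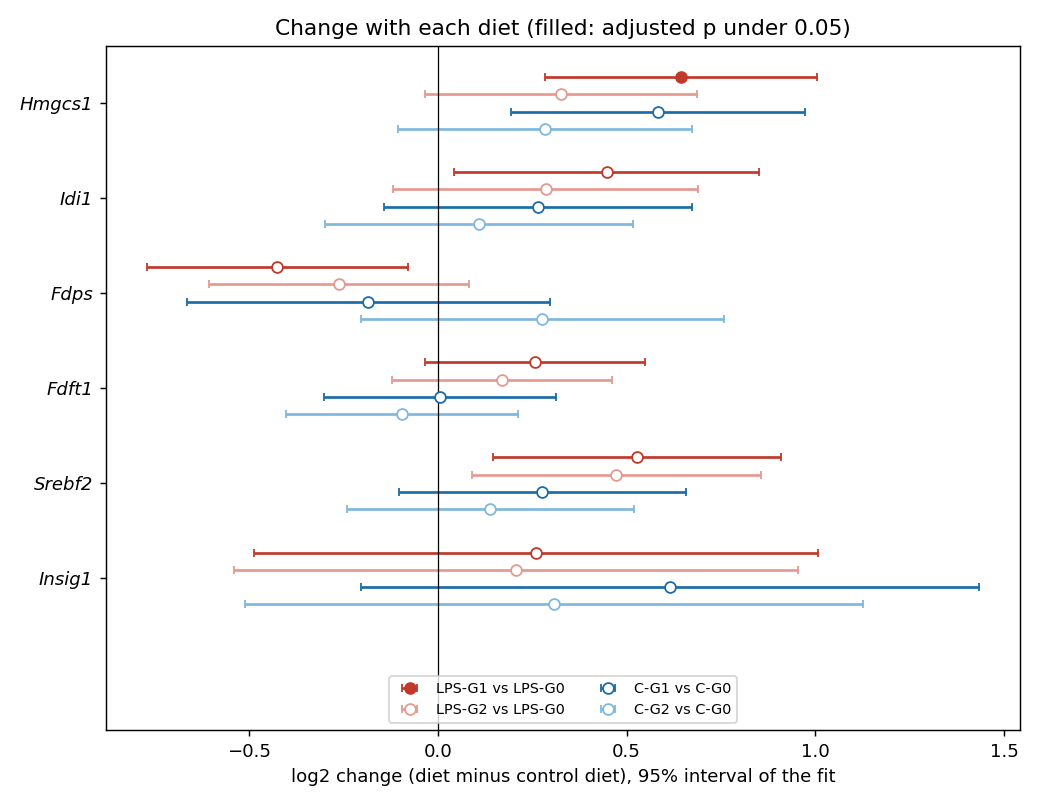
Log2 change with each diet against the control diet (x axis) with the 95% interval of the limma fit, for the 6 tested genes (y axis) and 4 comparisons (colours); filled points have an adjusted p under 0.05. Only Hmgcs1 in LPS-G1 vs LPS-G0 (0.64) is filled, and Fdps in LPS-G1 vs LPS-G0 lies at -0.42.

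The retention protein gene Insig1 read -0.20, -0.35, -0.50 and 0.01 in LPS-G1 and -0.78, -0.16, -0.33 and -0.81 in LPS-G0. Its groups overlapped, with 1 of the LPS-G0 arrays well above background. The limma difference was 0.26 with a 95% interval from -0.49 to 1.01. Its values in C-G1 reached from -0.59 to 1.14.

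Sqle, the oxygenase that acts on squalene, and Dhcr7, which carries out the last step to cholesterol, were too dim to test. Sqle was detected in Cy3 in 3 of 4 LPS-G1 rats but 0 of 4 LPS-G0 rats, with log2 ratios of 0.16, 0.61, 0.07 and 0.93 in LPS-G1 and -1.43, -0.63, -0.78 and -1.34 in LPS-G0. The mean Cy3 signal of LPS-G1, which includes replicate 2 that was not well above background, was 2.51-fold the limit of LPS-G0. For each LPS-G0 array this limit was the larger of its own signal and the lowest signal well above background. The mean limit was near the observed mean (5.30 and 5.29 on the log2 scale), so the fold is not a lower bound. Without the LPS-G0 pair of conflicting labels the fold was 2.44. In LPS-G2 Sqle was well above background on only 1 of 4 arrays, so no fold is given. Without LPS, Sqle was well above background on 2 of 4 arrays in C-G0, 1 of 4 in C-G1 and 3 of 4 in C-G2. Dhcr7 was well above background on 3 of 4 arrays in C-G1 and in C-G2 and on 1 of 4 in the other groups, and read between -1.57 and 1.13.

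**Figure D3:**
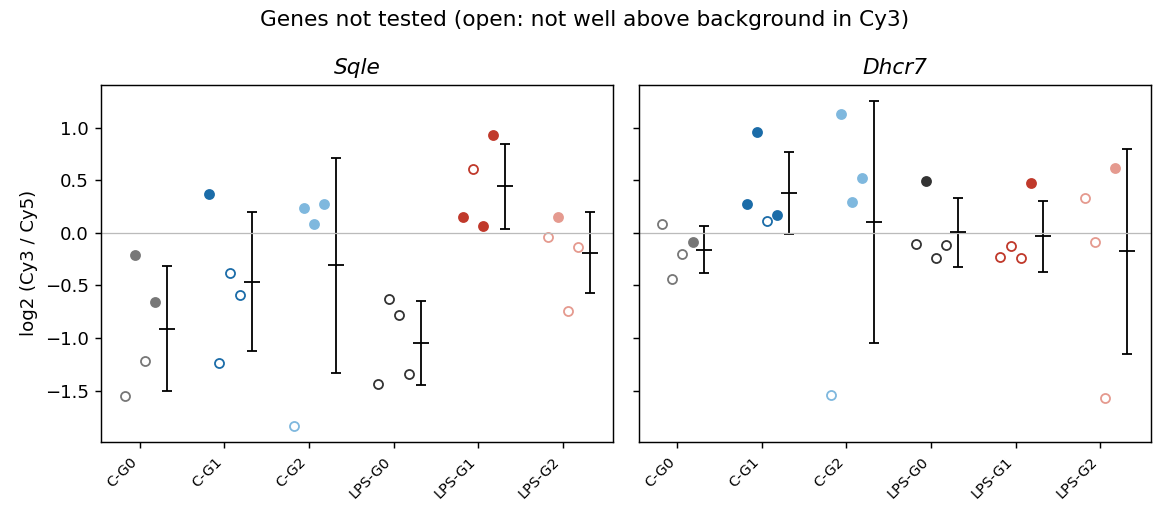
Log2 ratio of Cy3 over Cy5 (y axis) of Sqle and Dhcr7 on each array in the 6 groups (x axis), with mean and SD of 4 arrays; open points are not well above background. The LPS-G0 arrays of Sqle are all open and lie between -1.43 and -0.63.

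The G2 diet gave no call among these genes. In LPS-G2 against LPS-G0, Srebf2 differed by 0.47 ± 0.18 (SE), with a limma p of 0.0185 and an adjusted p of 0.597, and its LPS-G2 values of 0.14, -0.20, 0.13 and 0.11 lay above all of LPS-G0. Hmgcs1 read -0.10, -0.00, 0.23 and -0.11, also above all of LPS-G0, with a difference of 0.33 and an adjusted p of 0.597. With limma, 0 of 6 genes and 0% of all probes were called, 1 of 6 and 8.23% passed an unadjusted p under 0.05, and 3 of 6 genes did not overlap against 10.5% of all probes (3 of 6 and 26.8% without the pair of conflicting labels). Neutrophil markers differed between these groups too: their median level lay between -0.20 and 0.72 in LPS-G2 and between -0.65 and -0.26 in LPS-G0, and 4 of 5 were higher at an unadjusted limma p under 0.05 with 0 called. Their part in the values of Srebf2 and Hmgcs1 was not tested. In C-G2 against C-G0, 0 of 6 were called (0.028% of all), and 0 of 6 passed at an unadjusted p under 0.05 (13.3% of all). Over both LPS states 0 of 6 were called by limma for G2 (0.00934% of all), with 2 of 6 at an unadjusted p under 0.05 (12.7% of all), Hmgcs1 by 0.31 and Srebf2 by 0.31.

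The 2 diets were also set against each other. In LPS-injected rats Hmgcs1 was 0.32 higher on G1 than on G2, with an interval from -0.04 to 0.68 and a limma adjusted p of 0.679. By limma 0 of 6 genes were called and 0 of 6 passed an unadjusted p under 0.05, and 0% of all probes were called (6.68% at an unadjusted p under 0.05). In rats without LPS, 0 of 6 were called by limma and 0 of 6 at an unadjusted p under 0.05 (0% and 15.4% of all), by the brighter probe of Fdps. The second Fdps probe gave -0.60 on the log2 scale for G1 against G2, with a limma p of 0.00590 and an adjusted p of 0.323, and the brighter one -0.46 with a p of 0.0588. The diet differences with and without LPS were compared by an interaction term: 0 of 6 genes by limma, at the adjusted or at an unadjusted p under 0.05, for G1 and for G2. Of all probes 0% were called in either, and 3.01% for G1 and 5.57% for G2 passed the unadjusted threshold. For Hmgcs1 the G1 interaction was 0.06 with an interval from -0.49 to 0.61.

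LPS on the control diet gave 0 of 6 genes past the adjusted threshold of limma (1 of 6 at an unadjusted p under 0.05), where 0.0097% of all probes passed (15.2% at an unadjusted p under 0.05). Fdps was 0.52 ± 0.16 (SE) higher in LPS-G0 than in C-G0, with a limma p of 0.00582 and an adjusted p of 0.219, and C-G0 read 0.29, -0.36, -0.25 and -0.31. The groups overlapped through C-G0 replicate 1, and without that array the difference was 0.67 with a limma adjusted p of 0.0108. Without that array 1140 of all 10313 probes were called, against 1 in the main fit, so the pass of Fdps there is no result about these genes. The second Fdps probe differed by 0.31 with a limma p of 0.0619. NK and cytotoxic markers were higher with LPS in 7 of 7 at an unadjusted limma p under 0.05 with 0 called, and the neutrophil level lay between -0.65 and -0.26 in LPS-G0 and between -0.05 and 0.25 in C-G0. Their part in the Fdps value was not tested. Hmgcs1 differed by 0.00 with an interval from -0.36 to 0.36.

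Other genes of the pathway were counted from lists. Of 17 further synthesis enzymes, 6 were tested in LPS-G1 against LPS-G0 and 1 was called, where 8.93% of all probes were. This was Msmo1, a sterol methyl oxidase, 0.75 higher with a limma adjusted p of 0.0357. This call was lost with all 24 arrays in the fit (adjusted p 0.105) and without the LPS-G0 pair of conflicting labels (0.159). Slide as a block (0.0565), Cy3 alone (0.306), no filter on dim probes (0.115) and analysis of variance with Tukey's HSD (0.171) lost it too. The call also failed in 7 of 16 fits that left out 1 array, those without any 1 LPS-G0 array or without LPS-G1 replicate 2, 3 or 4. Over both LPS states 7 were tested and 3 called. Msmo1 rose by 0.74 and Pmvk, phosphomevalonate kinase, by 0.64, each with an adjusted p of 0.0154, and Acat2, the thiolase at the entry of the pathway, fell by 0.44, with an adjusted p of 0.0182. Of 11 uptake and traffic genes, 7 were tested and 2 called over both states, Npc1, which moves cholesterol out of lysosomes, 0.63 higher with an adjusted p of 0.0154, and Stard4, a sterol carrier, 0.53 higher with an adjusted p of 0.0440. The calls of Msmo1, Pmvk, Acat2 and Npc1 held in each of 24 fits that left out 1 array, and that of Stard4 in 11 of 24, and all 5 were lost with Cy3 alone and with no filter on dim probes. Without the pair of conflicting labels Stard4 had an adjusted p of 0.0928. The share called over all probes was 27.9%. Of 5 genes of SREBP control 3 were tested, and of 5 efflux genes 4 were tested, with 0 called by limma in either list over both states. At an unadjusted p under 0.05 there were 1 of 3 and 3 of 4, against 44.9% of all probes.

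By limma, 2 of 9 markers of young red cells were called lower in LPS-G1 against LPS-G0 (Klf1 by -0.81, Epb42 by -0.93), against 8.39% of all probes. These calls were lost without the LPS-G0 pair of conflicting labels, LPS-G0 replicate 1 or 4, or LPS-G1 replicate 4, where 0 probes were called. In C-G1 against C-G0 0 of 9 were called (0.028% of all), with 5 of 9 lower at an unadjusted p under 0.05 (27.9% of all, in either direction). Over both LPS states 6 of 9 were called lower, against 18.2% of all. The globin gene Hbb and the haem enzyme gene Alas2 differed by 0.16 and 0.02 in LPS-G1 against LPS-G0. The median log2 ratio of 9 erythroid genes lay between -0.33 and 0.04 in LPS-G1 and between 0.15 and 0.43 in LPS-G0, and between -1.38 and -0.14 in C-G1 against -0.26 to 0.30 in C-G0, so that the groups overlapped only without LPS. Of 5 cell division genes, 1 was called lower in LPS-G1 against LPS-G0, a call lost in the same fits, and 4 over both LPS states. Their median lay between -0.44 and 0.08 in LPS-G1 and between 0.20 and 0.85 in LPS-G0. That of 5 B cell genes lay between -0.27 and 0.20 in LPS-G1 and between -0.59 and -0.07 in LPS-G0, which overlapped, with 0 of 4 tested called by limma or at an unadjusted p under 0.05. Without the pair of conflicting labels the LPS-G0 ranges were 0.27 to 0.43, 0.70 to 0.85 and -0.59 to -0.20. Over the 24 arrays, which share the common pool, Hmgcs1 correlated with the erythroid level at r -0.64 (-0.59 without the 2 arrays of most extreme erythroid level) and Fdps at 0.67 (0.55). Srebf2 correlated with the B cell level at r 0.78 (0.73) and with the erythroid level at -0.51 (-0.52). With the cell division level r was -0.62 for Hmgcs1, -0.55 for Srebf2 and 0.71 for Fdps. After group means were removed, r with the erythroid level was -0.52 for Hmgcs1, -0.35 for Srebf2 and 0.61 for Fdps. That of Srebf2 with the B cell level was then 0.74. The part of these cell markers in the changes of Hmgcs1, Srebf2 and Fdps was not tested.

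**Figure D4:**
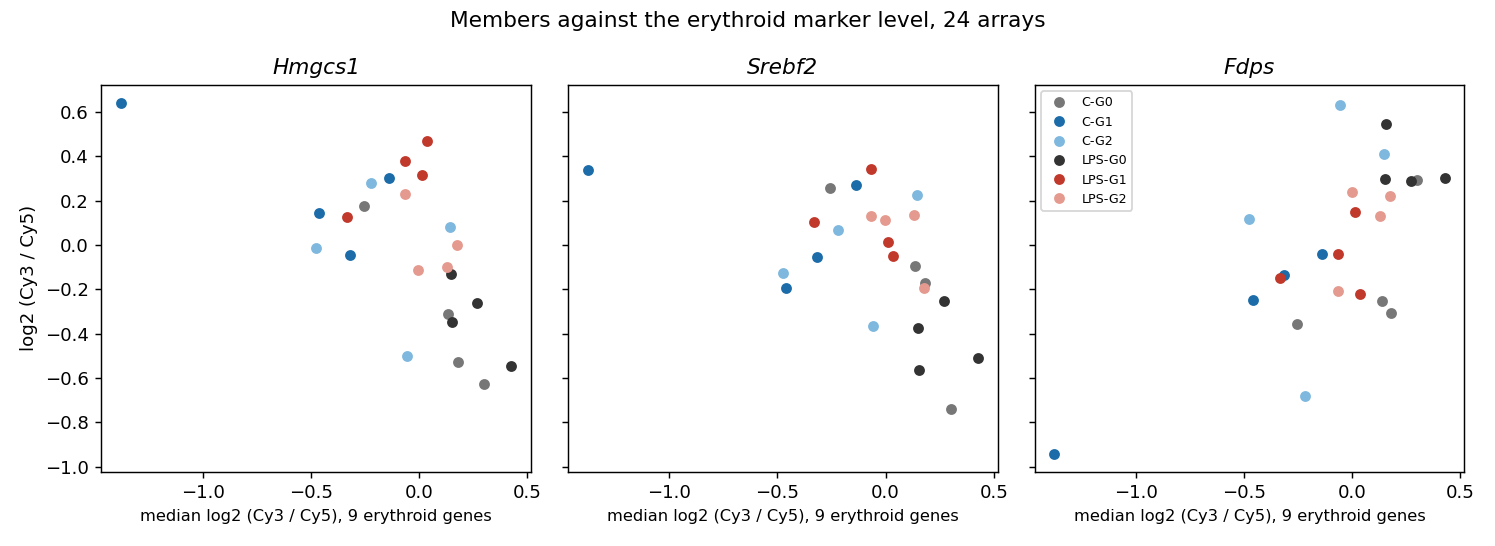
Log2 ratio of Hmgcs1, Srebf2 and Fdps (y axis) against the median log2 ratio of 9 erythroid genes (x axis) on the 24 arrays, coloured by group. Hmgcs1 and Srebf2 are lower and Fdps higher where the erythroid level is higher (r -0.64, -0.51 and 0.67), and 1 C-G1 array lies apart at -1.38.

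Among the 5 tested genes other than Fdps, pairs correlated across the 24 arrays with r from 0.33 (Fdft1 and Insig1) to 0.79 (Hmgcs1 and Srebf2). After the group means were removed, these pairs had 0.31 and 0.70. The pairs of Insig1 with Hmgcs1 and Srebf2 had 0.48 and 0.50, and that with Idi1 0.78. Fdps was negatively correlated with each of the other 5 tested genes, from -0.33 with Insig1 to -0.73 with Fdft1. By likeness to the mean standardised ratio of the 6 genes, the first 5 of 6864 other named genes were Adnp (r 0.80), Acads (0.79), Txndc15 (0.79), Tnnt3 (0.79) and Arl6ip4 (0.76). These are correlations over 24 arrays with a common pool and differing depth, given as a description.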

How the data were processed

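Per the labels, rat RNA and the reference pool were hybridised to 2-colour arrays. The authors' Feature Extraction files hold a deposited log10 ratio, background-subtracted and dye-normalised, processed and mean Cy3 and Cy5 intensity values and spot flags; the deposited table of the whole series holds the same 1511424 log10 ratios. The sources give version 10.7.3.1 (submitters' notes) and 10.10.1.1 (file headers). The log2 ratio is minus the log10 ratio turned to log2. Control spots and flagged outlier spots were left out and spots of a probe averaged. A probe counted as well above background when 0.5 or more of its spots were, a rule settled after comparing probe totals with an earlier analysis of these data; the other rules tried are in the closing section. Probes so on all 4 arrays of at least 1 group of the fit were tested, 10313 in the fit of 16 arrays (C-G0 and the 3 LPS groups) and 10708 in that of 24 arrays, with limma 3.58.1 (R 4.3.3), Benjamini-Hochberg over all of them. Single values were also tested by an exact two-sided permutation test. The brightest tested probe stands for a gene. The number of arrays limits the precision. Each slide of 8 arrays held all groups. P-values measure the spread between single rats. The code was tested on simulated data. The genes and lists were chosen with earlier results of these data known. The genes named are the 8, the genes of the lists called or of a known step, and 5 alike genes. The motifs CACNCCAC, CACCCCAC and CCAAT were added after the data were seen. Alternatives are given at the end. Among the marker lists, B cell, T cell, NK, neutrophil, monocyte and platelet levels overlapped between LPS-G1 and LPS-G0 (monocyte levels not without the pair of conflicting labels), and no explanation was tested. Some genes of the lists are not reported here.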

Additional observations from a re-analysis of the deposited data

Results flagged for a closer look

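In 54 sets of 4 arrays (9 probes in 6 groups) 1 array stood far from the other 3 by Dixon's ratio in 8, and chance flags about 1 set in 20. Sqle read -1.83 in C-G2 replicate 1 against 0.08 to 0.28 on the other 3 arrays, and Insig1 read -0.87 on the same array against 0.08 to 0.18. Idi1 read 0.42 in LPS-G2 replicate 1 against -0.21 to -0.15. Fdft1 read 0.0086 in C-G2 replicate 2 against -0.37 to -0.33. Srebf2 read -0.20 in LPS-G2 replicate 2 against 0.11 to 0.14. The brighter Fdps probe read 0.29 in C-G0 replicate 1 against -0.36 to -0.25, and 0.54 in LPS-G0 replicate 4 against 0.29 to 0.30. Dhcr7 read 0.47 in LPS-G1 replicate 4 against -0.24 to -0.13.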

How the results depend on the processing

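Hmgcs1 was higher in LPS-G1 than in LPS-G0 under all 17 alternatives (0.47 to 0.73, adjusted p 0.00231 to 0.306). Its adjusted p was under 0.05 in 11 of them and in 10 of 16 fits that left out 1 array. Those 11 include settings that leave its ratios and the model as they were: the deposited table, the mean over the Fdps probes, the 2-fold rule and the rules on spots. The 2-fold rule keeps its adjusted p, but Hmgcs1 was not called under it. Of the 6 tested genes 1 was called in LPS-G1 vs LPS-G0, and 0 were called with all 24 arrays in the fit, with the Cy3 channel alone, with no filter on dim probes, with slide as a block, at adjusted p under 0.05 and at least 2-fold, by analysis of variance and Tukey's HSD, and without the LPS-G0 pair of conflicting labels. With normexp and loess 2 were called (Hmgcs1 and Srebf2), and with array weights 3 (Hmgcs1, Srebf2 and Fdps). Of all probes, 11.2% were called with normexp and loess and 27.6% with array weights, against 8.93% in the main fit. For G1 over both LPS states the 2 calls became 0 with Cy3 alone, with no filter and at the 2-fold rule, and 1 without the LPS-G0 pair. Array weights gave 1 call in LPS-G0 vs C-G0 (Fdps), where 1142 of all probes were called, against 1 in the main fit. The cause of these changes was not tested. Leaving out 1 array gave 0 to 3 calls in LPS-G1 vs LPS-G0, 0 to 1 in LPS-G0 vs C-G0 and 1 to 3 in G1 over both states. Of all probes, these fits called 0% to 18.8% in LPS-G1 vs LPS-G0 and 10.8% to 36.3% in G1 over both states. The 1 call in LPS-G0 vs C-G0 came without C-G0 replicate 1, where 1140 probes were called. With normexp and loess the median of the genes fell to 0.22 in LPS-G1 vs LPS-G0, while in G1 over both states it was 0.13. That of the G1 interaction was 0.33 with array weights, and that of LPS-G0 vs C-G0 ran from -0.24 to 0.061 as arrays were left out.

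After group means were removed, rats of the same replicate number had a mean correlation of 0.111 (from -0.307 to 0.538) and those of different numbers -0.0378. Arrays of the same number were thus somewhat more alike on average. Replicate number and slide go partly together, and the source of this likeness was not tested. The main fits did not pair rats by number. With the replicate block, 1 gene was called in C-G1 vs C-G0, Hmgcs1 (0.58, adjusted p 0.0471), and Idi1 passed in G1 over both states (0.36, adjusted p 0.0330). Calls rose over all probes as well. In C-G1 vs C-G0 there were 600 with this block, against 3 in the main fit. In G1 over both states 36.4% of all probes were called, against 27.9%.

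The sign turned in 19 of 994 values, each of a difference with an unadjusted p of 0.05 or more. With normexp and loess, Insig1 in LPS-G1 vs LPS-G2 was -0.042, Hmgcs1 in LPS-G0 vs C-G0 was -0.014, Fdft1 in C-G1 vs C-G0 was -0.022, Idi1 in C-G1 vs C-G2 was -0.046, and in the G2 interaction Insig1 was 0.039 and Idi1 -0.082. With Cy3 alone, Hmgcs1 in LPS-G0 vs C-G0 was -0.071, Insig1 in C-G1 vs C-G2 was -0.092 and in the G1 interaction 0.078, Fdft1 for G2 over both states was -0.052, and Hmgcs1 in the G2 interaction was -0.036. With array weights, Insig1 in LPS-G1 vs LPS-G2 was -0.24 and in the G2 interaction 0.14, Hmgcs1 in LPS-G0 vs C-G0 was -0.17, Fdps and Fdft1 in C-G1 vs C-G0 were 0.13 and -0.15, and Fdft1 for G2 over both states was -0.043. Without the LPS-G0 pair, Hmgcs1 in LPS-G0 vs C-G0 was -0.082 and Fdft1 for G2 over both states -0.018.

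As single arrays were left out, 41 of 1392 values turned sign, again of differences with an unadjusted p of 0.05 or more. Insig1 ran from -0.031 to 0.58 in LPS-G2 vs LPS-G0, from -0.32 to 0.29 in LPS-G1 vs LPS-G2, from -0.40 to 0.16 in LPS-G0 vs C-G0, from -0.0085 to 0.57 in C-G1 vs C-G2 and from -0.36 to 0.28 in the G2 interaction. Hmgcs1 ran from -0.10 to 0.17 in LPS-G0 vs C-G0, from -0.11 to 0.19 in the G1 interaction and from -0.12 to 0.15 in the G2 interaction. Srebf2 ran from -0.025 to 0.11 in LPS-G1 vs LPS-G2 and from -0.046 to 0.29 in C-G2 vs C-G0. Idi1 ran from -0.0022 to 0.29 in C-G2 vs C-G0 and from -0.00086 to 0.29 in the G2 interaction. Fdft1 ran from -0.13 to 0.093 in C-G1 vs C-G0, from -0.031 to 0.19 in C-G1 vs C-G2 and from -0.0081 to 0.081 for G2 over both states. Fdps ran from -0.28 to 0.017 in C-G1 vs C-G0 and from -0.078 to 0.14 for G2 over both states.

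The rule on the spots of a probe was varied after the data were seen: over 0.5 of the spots, any spot or all spots well above background tested 9615, 10408 and 9521 probes in the fit of 16 arrays in place of 10313, and no call of a gene or its count changed. Detection limits Sqle, Dhcr7 and Insig1, and with 4 rats a group a difference that missed the threshold is not shown to be absent.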
